A study of Mus musculus with 12 samples.

Results

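The potassium channel genes of the mouse hippocampus are described here after inhibition of miR-9 or of miR-34 with an adeno-associated virus (AAV) vector. All protein-coding gene symbols beginning with Kcn were taken, apart from Kcnj13, Kcne2 and the antisense or overlapping transcripts whose symbols end in os or ot. This gave 92 of the 20713 protein-coding symbols in the deposited read counts. RNA was sequenced from both hippocampi of 12 male C57BL/6 mice, in 2 experiments of 6 mice. Each mouse was injected at an age of 10 weeks and its tissue was taken 10 weeks later. In the miR-9 experiment 3 mice received GFP-miR-9sp (mice 17, 23 and 9) and 3 received GFP Ctrl (mice 16, 2 and 8). In the miR-34 experiment 3 mice received GFP-miR-34sp (mice 13, 18 and 3) and 3 others received GFP Ctrl (mice 10, 4 and 8, the last of them a different animal from mouse 8 above). A sponge is a transcript that carries several binding sites for 1 miRNA family and so keeps that family from its own targets. All 4 groups carried an AAV5 vector with GFP under the synapsin promoter, which is active in neurons, and the GFP Ctrl vector had no sponge. The labels call the cells hippocampal neurons, but whole tissue was extracted. Astrocyte markers summed to 1849 to 2100 counts per 1000000 counted reads (CPM) in the 12 mice, so a lower level of a channel RNA cannot be told apart from fewer cells that express it.

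Potassium channels let K+ leave the cell, which sets the resting potential, ends the action potential and spaces the spikes of a neuron. The voltage-gated (Kv) subunits open on depolarisation, the inward rectifiers (Kir) and the K2P leak channels act near rest, and the BK and SK channels open when calcium enters. Auxiliary subunits and silent Kv subunits, which form no channel alone, tune where and how fast the pore-forming subunits work.

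Both sponges were built against a family that shares 1 seed, bases 2 to 8 of the mature miRNA, which pairs with the 3′ UTR of its targets. The mature sequences (RefSeq, GRCm38.p6) are shown with the seed in capitals because the matches discussed below are read from them.
miR-9-5p: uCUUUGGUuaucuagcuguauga
miR-34a-5p: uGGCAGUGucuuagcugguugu
miR-34b-5p: aGGCAGUGuaauuagcugauugu
The complement of the miR-9 seed is ACCAAAG and that of the miR-34 seed is CACTGCC. An 8mer is such a match followed by A in the mRNA. Among the 87 channel genes with a 3′ UTR in GENCODE M1 (mm9), 7 held an 8mer of miR-9 (8.05%, against 3.75% of all 19915 genes) and 6 held an 8mer of miR-34 (6.90%, against 4.89%). The search used the sense strand of the longest 3′ UTR of each gene, and 3′ UTR length was not matched. A match is a description of these letters and is not evidence of a working site.

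The 8mers of miR-9 in the 6 genes that could be tested are shown first, with the match in capitals.
Kcna1: gaatcagagagACCAAAGAtattaattttc
Kcnj14: cattataattgACCAAAGAcagaacagtga
Kcnj2, first: cttaaatgaatACCAAAGAtaatgcacatt
Kcnj2, second: aaagtaatcaaACCAAAGAgtattcagtgg
Kcnk4: tggcttatttgACCAAAGAgccgtccctct
Kcnmb2: tttcgttcttcACCAAAGAaccttaagttt
Kcnmb4: agtggaaatccACCAAAGAactccaagacc
The capital letters lie in mm9 at chr6:126588274-126588281 (minus strand) in Kcna1, at chr7:53072611-53072618 (minus) in Kcnj14 and at chr11:110935165-110935172 and chr11:110936605-110936612 (plus) in Kcnj2. They lie at chr19:7000389-7000396 (minus) in Kcnk4, at chr3:32097346-32097353 (plus) in Kcnmb2 and at chr10:115900141-115900148 (minus) in Kcnmb4. All are in the 3′ UTR. The seventh gene, Kcnh1, had too few reads to be tested.

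The 8mers of miR-34 are shown for the 6 genes that hold one, followed by Kcnh2. That gene has only the 7 bases without the A, and is shown because it was the only tested gene with a miR-34 match that passed an unadjusted p of 0.05 after miR-34sp.
Kcna6: cattgtgaaatCACTGCCAccctcccagct
Kcnd3: tccttctctgtCACTGCCAaggactgcaga
Kcne1l: gggttagccatCACTGCCAggcccgctgca
Kcnj11: aaaataaagggCACTGCCAgagtctgccac
Kcnk3, first: ccagcctgagcCACTGCCAgggctctgcct
Kcnk3, second: atgcctgggcaCACTGCCAcagaatatgca
Kcnv1: aactctgtgtaCACTGCCAcagtttctatg
Kcnh2: tgtggtcccccCACTGCCctgggggcatt
In mm9 these capitals lie at chr6:126687057-126687064 (minus) in Kcna6, chr3:105472951-105472958 (plus) in Kcnd3 and chrX:138739708-138739715 (minus) in Kcne1l. They lie at chr7:53352958-53352965 (minus) in Kcnj11, at chr5:30926511-30926518 and chr5:30927479-30927486 (plus) in Kcnk3, at chr15:44938129-44938136 (minus) in Kcnv1 and at chr5:23825603-23825609 (minus) in Kcnh2.

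Between 17279620 and 24428477 reads were counted for each mouse of the miR-9 experiment, and for those of the miR-34 experiment between 11029604 and 16934133. A floor of 3 reads corresponded to 0.123 to 0.272 CPM, which covers counting error only. The channel genes took 0.472% to 0.493% of the reads of a mouse with miR-9sp or its GFP Ctrl, and 0.427% to 0.440% in the other experiment. Their summed level was 4808 ± 64.0 CPM after GFP-miR-9sp and 4834 ± 104 CPM in its GFP Ctrl mice, and 4363 ± 20.6 CPM after GFP-miR-34sp and 4320 ± 65.3 CPM in its GFP Ctrl mice (SD, n = 3). In both experiments the sponge and GFP Ctrl sums overlapped, so the total RNA of the family did not separate the groups.

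A set of mice stood apart for another tissue. The 10 choroid plexus markers summed to 650, 2003 and 2386 CPM in GFP Ctrl mice 10, 4 and 8 of the miR-34 experiment but to 155, 74.5 and 144 CPM in GFP-miR-34sp mice 13, 18 and 3. In that experiment 8 of 8 tested markers were lower with an unadjusted p under 0.05, and 3 of them had an adjusted p under 0.05. In the miR-9 experiment the sums were 54.8 to 890 CPM after GFP-miR-9sp and 128 to 752 CPM in GFP Ctrl. Folr1 was at 0 in every group and Otx2 in both sponge groups. The remaining lists, for neurons, dentate granule cells, interneurons, thalamus and habenula, striatum, astrocytes, oligodendrocytes, microglia and endothelial and mural cells, had at most 2 tested markers with an unadjusted p under 0.05 in either experiment. Mice of 1 group differed beyond counting noise in every pair, so no library was a copy of another.

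How much of the family could be read went with the number of RefSeq transcripts that a gene has in the deposited table. Of the 65 channel genes with 1 entry, 56 (86.2%) had a mean scaled count above 10 over the 12 mice, whereas 7 of 14 with 2 entries and 5 of 13 with 3 or more entries (38.5%) did. Among all protein-coding symbols the shares were 64.9%, 39.2% and 31.7%. Kcnma1, the pore of the BK channel, has 22 entries and was listed at 0 reads in all 12 mice. Kcnab2, a cytoplasmic subunit of Kv1 channels, has 4 entries, and Kcnj15, an inward rectifier, has 12, and both were also listed at 0 in all 12 mice. The rule for reads shared between transcripts is not given in the sources used here, and its part in these zeros was not tested.

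**Figure D1:**
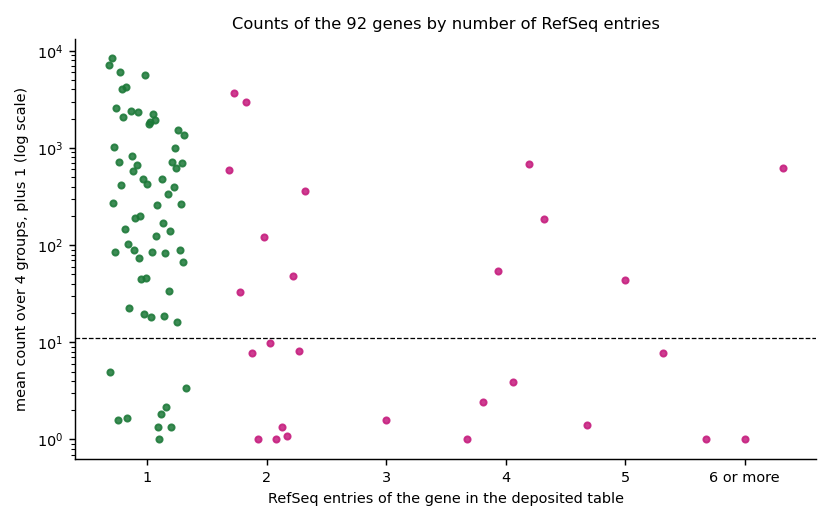
Mean count of each of the 92 genes (average of the 4 group means, plus 1, log scale) by the number of RefSeq entries of the gene; each point is a gene and the dashed line marks 10 reads. Genes with 1 entry (green) lie mostly above the line, and genes with several entries (pink) reach down to 0, which is plotted as 1.

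In all, 69 genes were tested in the miR-9 experiment and 68 in the miR-34 experiment, Kcnj12 in the first only. A mean scaled count above 10 over the 6 mice was required. Of the 23 genes tested in neither, 18 had a mean of at most 3 reads in all 4 groups. These were Kcna7, Kcnab2, Kcne1, Kcne3, Kcnip1, Kcnj1, Kcnj15, Kcnk13, Kcnk15, Kcnk16, Kcnk18, Kcnk7, Kcnma1, Kcnmb3, Kcnn4, Kcnq5, Kcnrg and Kcnv2. The other 5, Kcna10, Kcnh1, Kcnip3, Kcnj16 and Kcns3, had a few reads. Of the 18, 8 have 1 entry and 10 have several. Kcnj1, Kcnn4 and Kcnk16 were listed at 0 in all 12 mice, and Kcnk16 was the only gene with 1 entry among the 6 zeros.

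Levels were compared between genes per length, as RPKM (the CPM divided by the length of the RefSeq transcript in kilobases), only for genes with 1 entry and over the 6 GFP Ctrl mice of both experiments. The family was led by inward rectifiers, a fast transient Kv subunit and a leak channel. Kcnj10, the potassium-buffering rectifier of astrocytes, was at 63.0 ± 6.55 and Kcnj3, a subunit of the G protein-gated GIRK channels, at 62.6 ± 4.44 RPKM (SD, n = 6). Kcnd2, the pore of the dendritic A-type current of pyramidal cells, was at 56.7 ± 1.51. Kcnj4, a strong inward rectifier of neurons, was at 51.2 ± 6.12, and Kcnk1, a weakly conducting leak channel, at 50.8 ± 2.43. Next came Kcna1 (47.4 ± 0.516) and Kcna2 (42.2 ± 4.33), axonal delayed rectifiers, with Kcnmb4 (42.8 ± 2.26), the neuronal beta subunit of the BK channel, between them. Kcnj9, another GIRK subunit, was at 40.8 ± 5.16 and Kcnc4, a fast Kv3 subunit, at 40.3 ± 6.97. Among these 10, the ranges of neighbours over the 6 mice were separate only between Kcnk1 and Kcna1 and between Kcna1 and Kcnmb4. The ranges of the remaining neighbours overlapped, although Kcna2 was above Kcnj9 within each of the 6 mice.

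**Figure D2:**
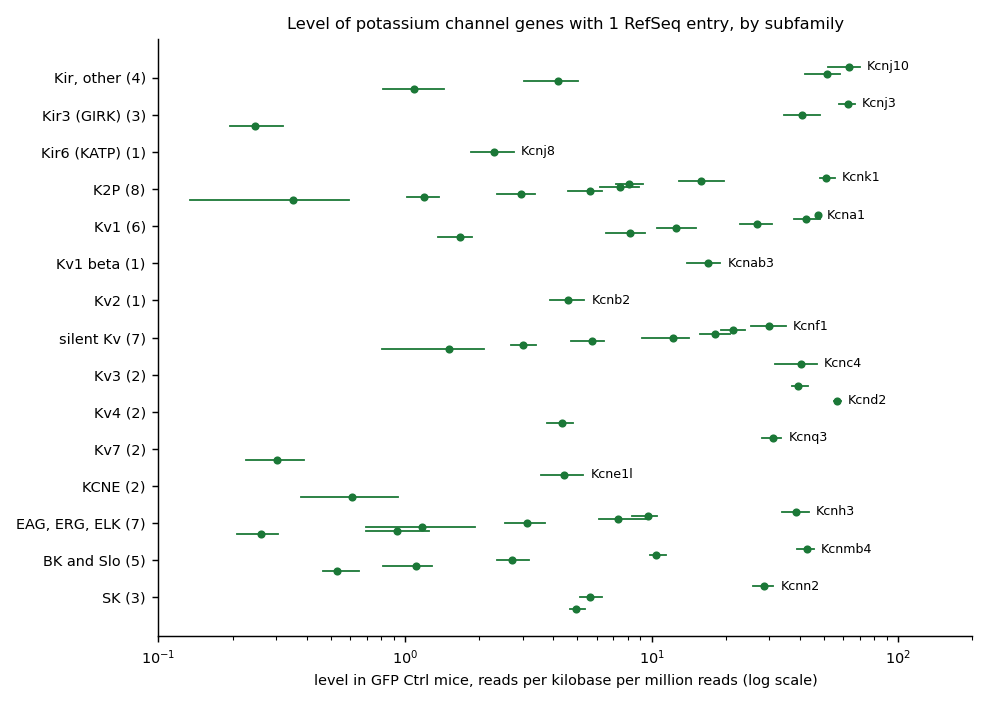
Level of 54 tested genes with 1 RefSeq entry in RPKM (reads per kilobase, scaled to CPM; log axis), grouped by subfamily with the number of genes in brackets; points are means and bars the range over 6 GFP Ctrl mice. The highest plotted gene of each subfamily is named, and the levels span from 0.247 (Kcnj5) to 63.0 (Kcnj10).

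The leading genes of other subfamilies were lower on the same per-length scale. Kcnq3, a Kv7 channel subunit, was at 31.2 ± 2.25 RPKM (SD, n = 6), Kcnh3, an ELK channel of the forebrain, at 38.4 ± 3.803 and Kcnn2, the SK channel of the afterhyperpolarisation, at 28.6 ± 2.15. Kcnf1 led the silent Kv subunits at 29.98 ± 4.38, and Kcnab3 was the only Kv1 beta gene with 1 entry, at 16.96 ± 2.004. Kcnj8, a pore of the ATP-sensitive KATP channel, was at 2.30 ± 0.344 and Kcne1l, a small beta subunit, at 4.41 ± 0.613. The KChIP genes, calcium-binding partners of Kv4, all have several entries, so no level per length is ranked for them. Kcnip2 had the highest summed count of them, at 3.48 ± 0.448 CPM in the GFP Ctrl mice of the miR-9 experiment, which does not rank their expression. At the low end were Kcnj5, the GIRK subunit of the heart, at 0.247 ± 0.0432 RPKM, and Kcnq1, the cardiac and epithelial Kv7 channel, at 0.302 ± 0.0582.

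Several abundant genes differed little between mice. The highest of the 12 mice exceeded the lowest by 1.11-fold for Kcnd2, 1.16-fold for Kcnk1 and 1.17-fold for Kcnmb4 and Kcnc2, a Kv3 subunit of fast-spiking interneurons. Mouse 23 of the GFP-miR-9sp group was high for Kcnq3, at 123 CPM against 74.2 to 96.7 in the other mice. It was also high for Kcnj6, a GIRK subunit, at 55.3 CPM against 35.7 to 43.3.

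The question of the first comparison was which channel genes changed when miR-9 was inhibited in hippocampal neurons. After GFP-miR-9sp no channel gene had an adjusted p under 0.05 (edgeR quasi-likelihood test, Benjamini-Hochberg adjustment over 13045 genes), and no gene of any kind did (0.0%). At an unadjusted p under 0.05 there were 5 of 69 channel genes (7.25%), against 4.73% of all genes tested, and their adjusted p was 0.97 in each case. The estimates were higher for 4 genes, Kcng2 and Kcnj11 among them (5.80%, against 2.47% of all genes), and lower for 1, Kcna6 (1.45%, against 2.26%). The study's criterion, as applied here, was an unpaired two-sided test together with a minimum ratio of 1.2 in either direction. By it 1 gene was higher (against 0.466% of all genes) and 0 were lower (against 0.971%). The median log2 fold change of the 69 genes was 0.03 and that of all genes 0.00 to 2 decimals. Of the fitted changes, 64 were within 1.2-fold, and for 32 genes the whole 95% interval was within 1.2-fold.

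Kcng2, a silent Kv subunit, was at 28.0, 33.0 and 25.8 CPM in GFP Ctrl mice 16, 2 and 8 and at 39.2, 41.2 and 28.6 CPM in GFP-miR-9sp mice 17, 23 and 9. Mouse 9 of the sponge group lay inside the GFP Ctrl range, so the groups overlapped, and the log2 fold change was 0.35 ± 0.13 (SE; unadjusted p = 0.0258). Without GFP Ctrl mouse 16 or 8 or sponge mouse 17 or 23 it was between 0.24 and 0.32, with an unadjusted p from 0.0749 to 0.0974. Markers of dentate granule cells summed to 456, 562 and 420 CPM in the same GFP Ctrl mice and to 508, 570 and 423 CPM in the same sponge mice. Within each group the order of the mice was the same for Kcng2 and for these markers, and the part of the markers was not tested. In the miR-34 experiment Kcng2 was at 36.7 to 40.2 CPM in all 6 mice.

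Kcnq3, a Kv7 subunit that restrains repetitive firing, was above the GFP Ctrl range in mouse 23 only, with a log2 fold change of 0.16 ± 0.09 (unadjusted p = 0.108). The abundant Kcnc1 and Kcnc2, which carry the Kv3 current of fast-spiking interneurons, had log2 fold changes of 0.04 and 0.03. Neuronal markers summed to 4327 to 4648 CPM in these sponge mice and to 3880 to 4408 CPM in their GFP Ctrl mice, with 2 of 5 tested markers higher at an unadjusted p under 0.05. Their part in the estimates after GFP-miR-9sp was not tested.

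Kcnj11 (chr7:53352533-53355607, minus strand), the pore of the neuronal KATP channel that senses ATP, was at 7.37, 6.25 and 7.47 CPM in GFP Ctrl and at 8.27, 8.45 and 7.88 CPM after GFP-miR-9sp. Kcnj11 has 2 RefSeq entries. The groups did not overlap, and the log2 fold change was 0.24 ± 0.11 (unadjusted p = 0.0461). It was between 0.16 and 0.28 without GFP Ctrl mouse 16 or 2 or any of the 3 sponge mice, with an unadjusted p from 0.0543 to 0.169. For the other KATP pore, Kcnj8, it was 0.11 ± 0.16 with overlapping groups.

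Kcna6 (chr6:126658347-126690680, minus strand), a delayed rectifier of the Kv1 family, was the only gene with a lower estimate at this threshold. It was at 172, 158 and 181 CPM in GFP Ctrl and at 155, 155 and 153 CPM after GFP-miR-9sp, so the groups did not overlap. On the log2 scale the change was -0.12 ± 0.05 (unadjusted p = 0.0407). It was -0.07 without GFP Ctrl mouse 8 (unadjusted p = 0.177), and -0.11 without GFP Ctrl mouse 16, sponge mouse 17 or sponge mouse 9 (unadjusted p from 0.0987 to 0.109). GENCODE places a non-coding RNA, Gm17456, on the opposite strand over 39.5% of the exon bases of Kcna6. Whether reads were counted by strand is not given in the sources used here, so reads of both genes cannot be told apart. The 5 other tested Kv1 genes had log2 fold changes from -0.10 to 0.06, 3 of them above 0.

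Non-overlapping groups were also found for Kcnip4, Kcnmb2 and Kcnj10 without p under 0.05. In total 5 of 69 genes (7.25%) were higher in all sponge mice than in all GFP Ctrl mice, against 3.11% of all genes, and 2 (2.90%) were lower, against 7.86%. Kcnj10 was the second of the lower genes, at 347 to 355 CPM after GFP-miR-9sp and 359 to 378 CPM in GFP Ctrl. Kcnk5, a pH-sensitive leak channel, had the lowest estimate, a log2 fold change of -0.77 ± 0.35 (unadjusted p = 0.051). It was at 1.44 ± 0.608 CPM in GFP Ctrl (SD, n = 3) and at 0.579 to 0.939 CPM after GFP-miR-9sp.

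**Figure D3:**
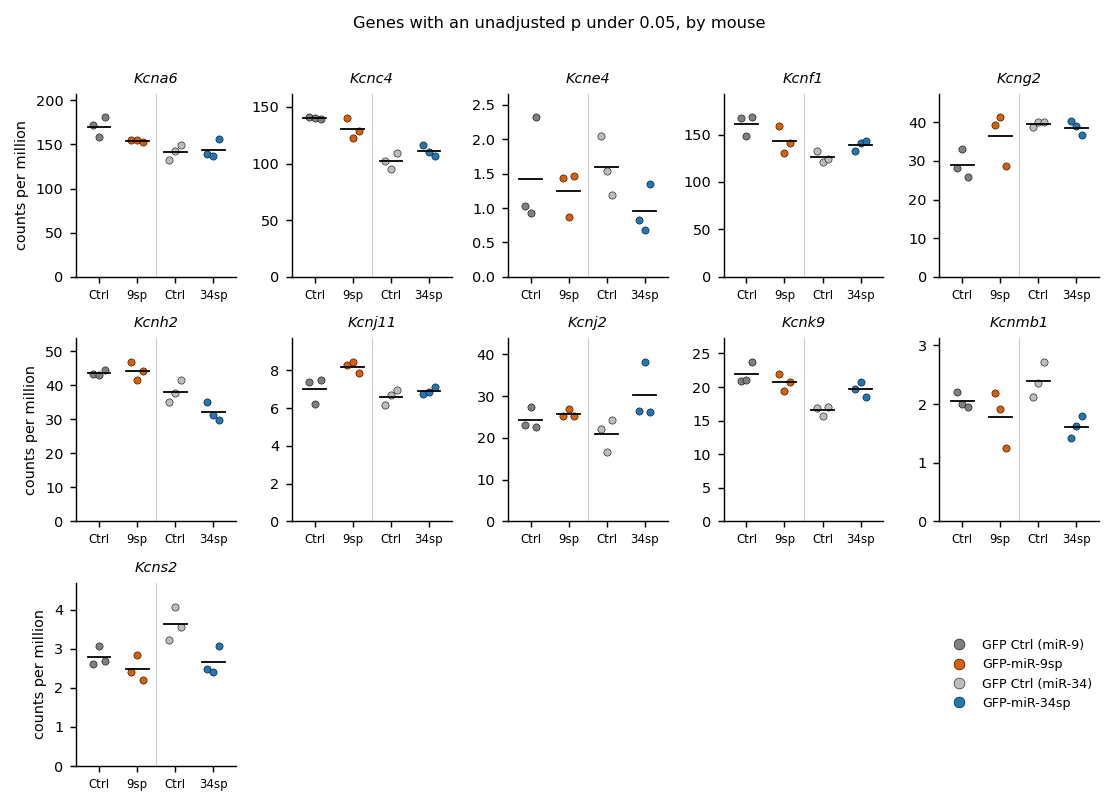
CPM of 11 genes with an unadjusted p under 0.05 in a comparison, by mouse; points are mice, bars are means of 3 mice, axes start at 0, and the grey line separates the miR-9 experiment (left) from the miR-34 experiment (right). For Kcnk9 the GFP-miR-34sp mice at 18.5 to 20.7 lie above their GFP Ctrl mice at 15.7 to 17.1, whereas for Kcng2 a GFP-miR-9sp mouse at 28.6 lies among GFP Ctrl mice at 25.8 to 33.0.

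The second comparison put the same question for miR-34. After GFP-miR-34sp again no channel gene had an adjusted p under 0.05 (edgeR, Benjamini-Hochberg adjustment over 12492 genes), against 0.064% of all genes. At an unadjusted p under 0.05 there were 7 of 68 channel genes (10.3%), against 6.43% of all genes tested, with adjusted p from 0.565 to 0.745. The estimates were higher for 3 genes, Kcnj2, Kcnk9 and Kcnf1 (4.41%, against 2.71% of all genes), and lower for 4, Kcnh2, Kcnmb1, Kcns2 and Kcne4 (5.88%, against 3.72%). By the study's criterion 0 genes were higher (against 0.784% of all genes) and 2 were lower (Kcnmb1 and Kcns2, against 1.21%). The median log2 fold change of the 68 genes was -0.02 and that of all genes 0.00 to 2 decimals. Of the fitted changes, 61 were within 1.2-fold, and for 33 genes the whole 95% interval was.

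Kcnj2 (chr11:110927478-110938135, plus strand), a strong inward rectifier that holds the resting potential, had the smallest p of the family. It was at 22.1, 16.6 and 24.3 CPM in GFP Ctrl mice 10, 4 and 8 and at 26.5, 38.2 and 26.3 CPM in GFP-miR-34sp mice 13, 18 and 3. The groups did not overlap, but mice 13 and 3 were close to the highest GFP Ctrl mouse and mouse 18 was far above. The log2 fold change was 0.51 ± 0.16 (1.42-fold, 95% interval 1.12 to 1.81; unadjusted p = 0.00816; edgeR adjusted p = 0.565). With no filter on low counts the adjusted p was 0.0258, and over all alternatives it ranged from 0.0258 to 0.848. Without mouse 18 the log2 fold change was 0.32, and it was 0.38 without GFP Ctrl mouse 4. The 3′ UTR of Kcnj2 holds 2 of the miR-9 8mers shown above and no match to the miR-34 seed.

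Kcnk9 (chr15:72342549-72376709, minus strand), an acid-sensitive leak channel of neurons, was at 16.8, 15.7 and 17.1 CPM in GFP Ctrl and at 19.7, 20.7 and 18.5 CPM after GFP-miR-34sp, without overlap. On the log2 scale the change was 0.24 ± 0.09 (unadjusted p = 0.0153). Without GFP Ctrl mouse 4 it was 0.21 (unadjusted p = 0.0529), and without sponge mouse 18 it was 0.20 (unadjusted p = 0.0556). Kcnf1 (chr12:17178908-17183694, minus strand), the leading silent Kv subunit, was at 132, 121 and 124 CPM in GFP Ctrl and at 133, 141 and 144 CPM in sponge mice. Its groups did not overlap, although GFP-miR-34sp mouse 13 was nearly level with GFP Ctrl mouse 10, and the log2 fold change was 0.14 ± 0.05 (unadjusted p = 0.0119).

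Kcnh2 (chr5:23825407-23857422, minus strand), the ERG channel known for cardiac repolarisation and also made by neurons, was at 35.1, 37.6 and 41.5 CPM in GFP Ctrl and at 35.1, 31.3 and 29.8 CPM after GFP-miR-34sp. Mouse 13 was level with GFP Ctrl mouse 10 to 3 digits, and the groups only just did not overlap. The log2 fold change was -0.25 ± 0.08 (unadjusted p = 0.0132). Without GFP Ctrl mouse 8 it was -0.18 (unadjusted p = 0.0627), and without sponge mouse 3 it was -0.19 (unadjusted p = 0.0582). The related Kcnh3, the most abundant gene of its subfamily, had a log2 fold change of -0.05 ± 0.04.

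The other lower genes had few reads. Kcnmb1 (chr11:33863013-33873641, plus strand), the BK beta subunit of smooth muscle, was at 2.12, 2.36 and 2.72 CPM in GFP Ctrl and at 1.42, 1.63 and 1.80 CPM after GFP-miR-34sp, without overlap. On the log2 scale the change was -0.58 ± 0.22 (unadjusted p = 0.0228). Without GFP Ctrl mouse 8 or without sponge mouse 13 it was -0.48, with an unadjusted p of 0.0839 and 0.0868. Kcnmb1 lies within Kcnip1 on the opposite strand, and no exon bases are shared. Endothelial and mural markers summed to 289 to 351 CPM in GFP Ctrl and 281 to 302 CPM after GFP-miR-34sp, with 0 of 4 tested markers past an unadjusted p of 0.05 and Pdgfrb at 0 in all mice.

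Kcns2 (chr15:34767110-34772095, plus strand), a silent Kv subunit, was at 3.22, 4.08 and 3.57 CPM in GFP Ctrl and at 2.48, 2.40 and 3.07 CPM after GFP-miR-34sp, without overlap. Kcns2 has 2 RefSeq entries, so its low count may depend on how shared reads were counted, which was not tested. The log2 fold change was -0.45 ± 0.19 (unadjusted p = 0.0355). It was between -0.45 and -0.36 without GFP Ctrl mouse 4 or 8 or sponge mouse 13 or 18, with an unadjusted p from 0.0616 to 0.127. Kcne4 (chr1:78813502-78816599, plus strand), a beta subunit that dampens several Kv channels, was at 2.05, 1.54 and 1.19 CPM in GFP Ctrl and at 0.827, 0.687 and 1.35 CPM in sponge mice. Mouse 3 lay inside the GFP Ctrl range, and the log2 fold change was -0.75 ± 0.33 (unadjusted p = 0.0401). Without GFP Ctrl mouse 10 or 4 or sponge mouse 13 or 18 it was between -0.78 and -0.51, with an unadjusted p from 0.0632 to 0.189.

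Kcnh2, Kcnmb1, Kcns2 and Kcne4 were compared in the mice whose choroid plexus markers separated the groups, at 650 to 2386 CPM in GFP Ctrl and 74.5 to 155 CPM after the sponge. Markers of the striatum summed to 70.6 to 78.7 CPM after GFP-miR-34sp and 75.5 to 127 CPM in GFP Ctrl, with 2 of 5 tested markers lower at an unadjusted p under 0.05. The part of the choroid plexus or of the striatum in these values was not tested. Kcne4 was highest in GFP Ctrl mouse 10, which had the lowest marker sum of the GFP Ctrl mice. Kcnmb1 and Kcnh2 were highest in mouse 8, which had the highest sum, and Kcns2 in mouse 4. Mouse 8 also had the highest GFP Ctrl sum of every other cell type list except neurons, for which it had the lowest (3806 CPM). Its endothelial and mural sum was 351 CPM and its striatal sum 127 CPM. The part of these other lists was not tested. Markers of dentate granule cells summed to 535 to 596 CPM after GFP-miR-34sp and 467 to 580 CPM in GFP Ctrl, with 2 of 5 tested markers higher at an unadjusted p under 0.05. Their part in the values of Kcnj2, Kcnk9 and Kcnf1 was not tested.

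Higher in all sponge mice than in all GFP Ctrl mice were 5 of 68 genes (7.35%), against 6.2% of all genes, and lower were 4 (5.88%), against 5.43%. Besides those named, Kcng3 was among the higher genes and Kcnk12 among the lower ones. The 10 genes with the highest levels had log2 fold changes from -0.07 for Kcnj10 (95% interval -0.20 to 0.06) to 0.11 for Kcnc4 (-0.02 to 0.23), and each of these intervals included 0.

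**Figure D4:**
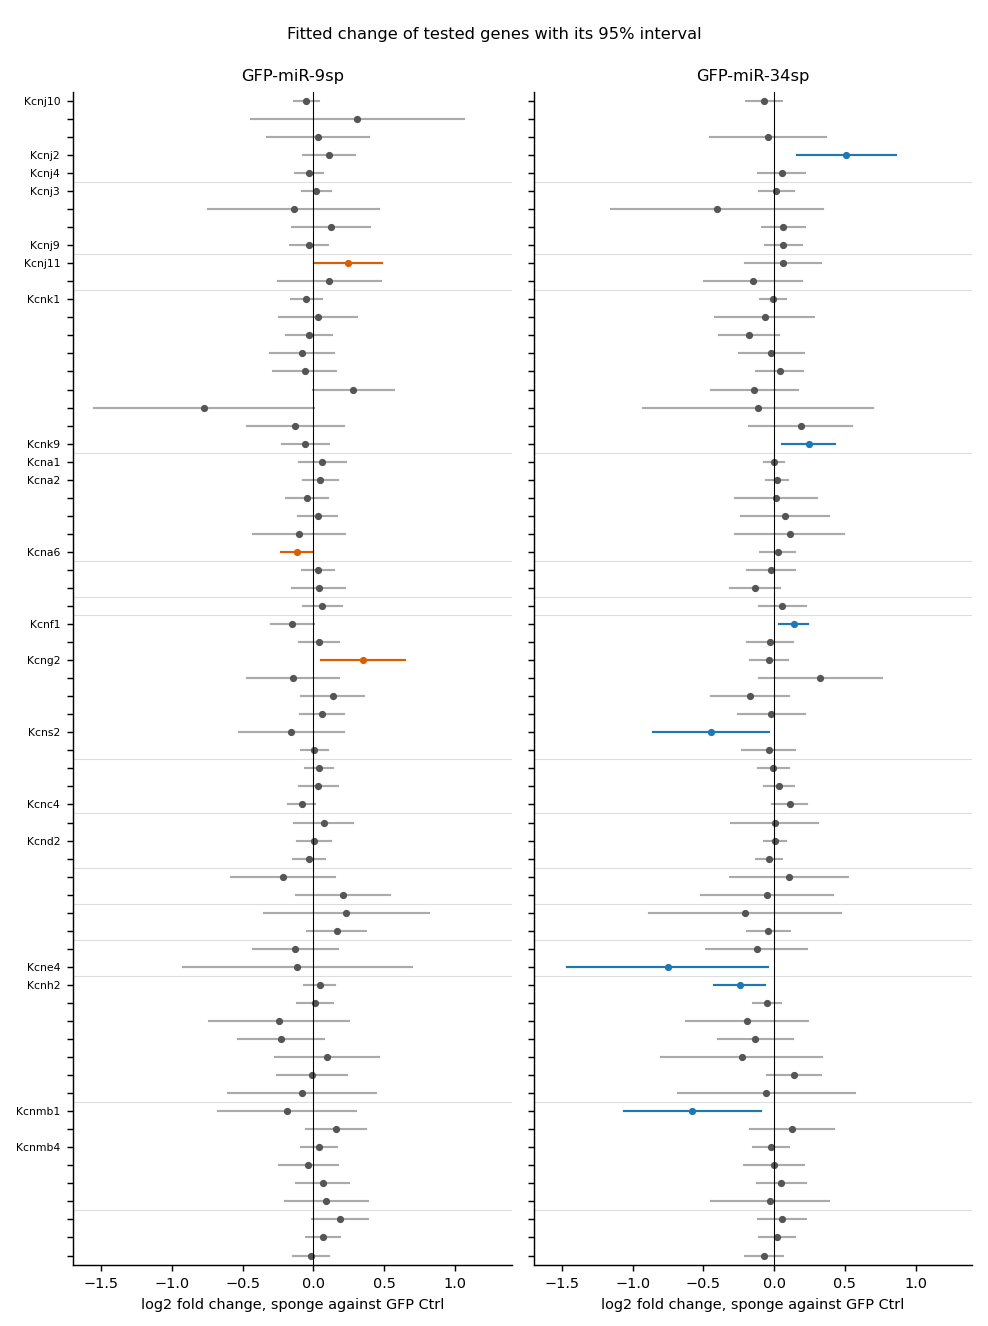
Fitted log2 fold change (point) and its 95% interval (bar) of tested genes after GFP-miR-9sp (left) and GFP-miR-34sp (right), ordered by subfamily with grey lines between them, the called genes and the 10 highest levels being named; coloured genes had an unadjusted p under 0.05. The 3 coloured genes on the left and 7 on the right do not share a name, which with so few genes does not set the sponges apart. Abundant genes such as Kcnd2 have narrow bars.

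Sorted by subfamily, the called genes were scattered. Subfamilies of called genes that are not reported here by name are left out of this tally. In the miR-9 experiment 1 of 2 tested KATP genes and 1 of 8 silent Kv genes had a higher estimate at an unadjusted p under 0.05 (edgeR). A lower one was found for 1 of 6 Kv1 genes. Over all genes tested there, 2.47% were higher and 2.26% lower. In the miR-34 experiment 1 of 9 K2P genes, 1 of 8 silent Kv genes and 1 of 4 Kir genes outside the GIRK and KATP groups had a higher estimate. A lower estimate was found for 1 of 8 silent Kv genes, 1 of 7 EAG, ERG and ELK genes, 1 of 6 BK and Slo genes and 1 of 2 KCNE genes. Over all genes tested in that experiment, 2.71% were higher and 3.72% lower. With so few genes in each subfamily, these counts do not set any of them apart. Kv4 had subfamily medians of 0.00 and 0.00 in the miR-9 and miR-34 experiments. Its sums were 445 ± 18.4 against 455 ± 16.6 CPM and 432 ± 7.93 against 434 ± 1.72 CPM (sponge against GFP Ctrl, SD, n = 3), and they overlapped in both. Sums are given for Kv4 only, and those of some other subfamilies did not overlap.

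Channel genes with an 8mer of the inhibited miRNA were then looked up. After GFP-miR-9sp all 6 tested genes with a miR-9 8mer had estimates above 0, with log2 fold changes from 0.03 (Kcnj14, a motoneuron rectifier) to 0.28 (Kcnk4, a mechanosensitive leak channel) and a median of 0.09. The other 63 genes had a median of 0.01. Of all 69 tested channel genes 39 (56.5%) were above 0, against 49.7% of all genes. None of the 6 passed an unadjusted p of 0.05, and the smallest was 0.054 for Kcnk4. Kcnk4 was at 8.35, 10.7 and 10.5 CPM in GFP Ctrl and at 10.1, 12.6 and 12.7 CPM after the sponge, so the groups overlapped. When the 7-base matches were added, the 14 tested genes had a median of 0.02 and 8 of them were above 0, beside a median of 0.03 for the 55 tested genes that hold none. After GFP-miR-34sp the 6 genes with a miR-34 8mer had a median of -0.01, and 3 of them were above 0, from -0.12 (Kcne1l) to 0.06 (Kcnj11). The other 62 genes had a median of -0.02. In the same experiment the 12 tested genes with any miR-34 match had a median of -0.04, with 4 of them above 0, and the 56 genes without one had a median of -0.01. Kcnh2 had the lowest estimate of the 12.

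The sponges were compared with each other by testing the difference between their effects in 1 model of 12 mice. No channel gene had an adjusted p under 0.05 (edgeR, Benjamini-Hochberg adjustment over 12835 genes), and no gene of any kind did (0.0%). At an unadjusted p under 0.05 there were 6 of 68 genes (8.82%), against 6.1% of all genes. For 3 of them, Kcnf1, Kcnk9 and Kcnc4, the change was higher after miR-34sp (4.41%, against 2.55% of all genes), and for 3, Kcnh2 and Kcng2 among them, it was higher after miR-9sp (4.41%, against 3.55%). Between the GFP Ctrl mice of the 2 experiments 19 of 68 genes had an adjusted p under 0.05 by edgeR with Benjamini-Hochberg adjustment (27.9%, against 25.2% of all genes), Kcnc4, Kcnf1, Kcng2 and Kcnk9 among them, with Kcnc4 at 140 ± 0.792 CPM in the miR-9 experiment and 103 ± 7.08 CPM in the miR-34 experiment (SD, n = 3). Experiment and group of GFP Ctrl mice cannot be told apart there. None of the genes with an unadjusted p under 0.05 after one sponge had it after the other. With so few genes called, this does not set the sponges apart. Of 68 genes 33 had the same sign after both sponges, and across genes, which are not independent, the correlation of the 2 log2 fold changes was r = 0.20 (Spearman rho = 0.06), beside r = 0.05 over all 12389 genes. The 2 experiments shared no mice.

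**Figure D5:**
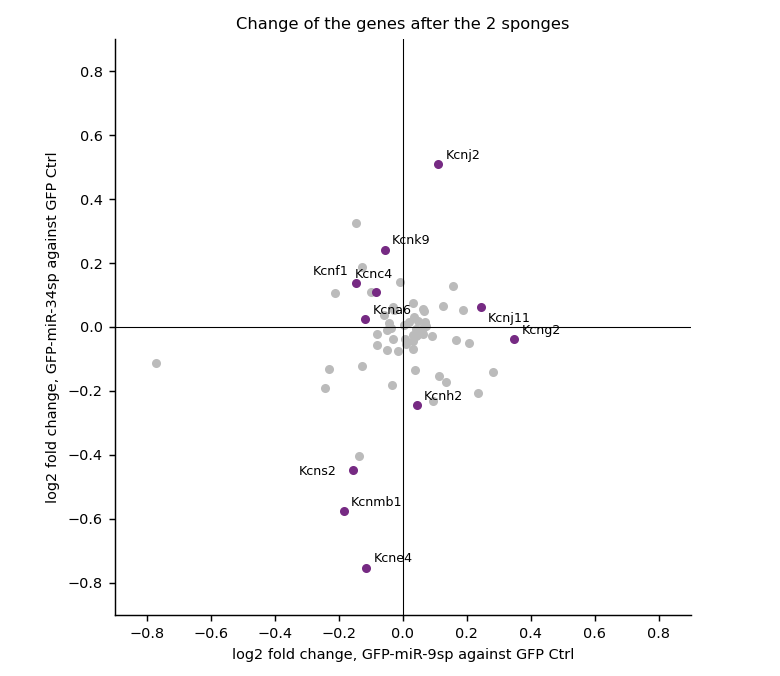
Log2 fold change of 64 genes after GFP-miR-34sp (vertical) against that after GFP-miR-9sp (horizontal); named purple points are 11 genes with an unadjusted p under 0.05 in a comparison. Most genes sit near 0 on both axes, and 30 of the 64 have the same sign on both.

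Genes whose proteins assemble with these channels but whose symbols do not begin with Kcn were counted in the same fits. Of 22 partner genes 17 were tested. After GFP-miR-9sp Adam23, an axonal adhesion protein of the Kv1 complex, and Calm3, a calmodulin, had higher estimates (log2 fold changes 0.10 ± 0.04 and 0.11 ± 0.04, unadjusted p = 0.0228 and 0.0191 by edgeR). Lrrc55, a BK gamma subunit, had a lower one (-0.24 ± 0.11, unadjusted p = 0.0456). After GFP-miR-34sp Lgi1, a secreted ligand of Adam22 and Adam23, was estimated higher (0.08 ± 0.03, unadjusted p = 0.0329). Dpp6, an auxiliary subunit of Kv4, was estimated lower (-0.26 ± 0.07, unadjusted p = 0.0047), as was Lrrc38, a further BK gamma subunit (-0.67 ± 0.26, unadjusted p = 0.0267). No partner gene had an adjusted p under 0.05. At an unadjusted p under 0.05 there were 3 of 17 partner genes after each sponge, against 4.73% of all genes after GFP-miR-9sp and 6.43% after GFP-miR-34sp.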

How the data were processed

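Poly-A RNA of the hippocampi of 12 mice was sequenced as 50-base single-end reads. The deposited counts are raw read counts per RefSeq transcript from the authors' pipeline, not normalized, with the transcript length in bases as a deposited value beside them. The study's methods name mm9 and the submitters' processing notes name STAR and mm10, and this conflict could not be settled. The counting tool, its rule for shared reads and its use of strand are not given in the sources used here. Positions of genes and matches are from GENCODE M1 on mm9.

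RefSeq identifiers were matched to symbols (98.7% of 32850 entries) and counts were summed per symbol. The GFP Ctrl mice of the miR-9 experiment carry titles that do not name the experiment, and were placed by the treatment protocol. Each sponge was compared with the GFP Ctrl mice of its own experiment by edgeR 4.0.16 (R 4.3.3, quasi-likelihood test, TMM scaling, two-sided) over all genes with a mean scaled count above 10, with Benjamini-Hochberg adjustment over all of them. The difference between the sponge effects was fitted over 12 mice. CPM is the count per 1000000 counted reads of a mouse. Nothing in the labels says more than that the replicates are separate mice. With 3 mice against 3, the smallest exact permutation p is 0.1, so non-overlap of groups is given as a description. The test was also run on simulated counts, drawn with the same spread for all genes. That run does not cover spread that differs between genes or outlying mice, and no conclusion is drawn from it.

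The alternatives were DESeq2 1.42.0, other scalings, other filters, the study's criterion, 1 model of all mice and leaving out each mouse. The criterion was an unpaired two-sided test with a minimum ratio of 1.2 in either direction. Here it was applied to scaled counts summed per symbol, over genes with a GFP Ctrl mean above 10. It called 61 genes higher and 127 lower after GFP-miR-9sp, and 98 and 151 after GFP-miR-34sp. The study reports fewer in each case. Named were genes with an unadjusted p under 0.05, the 10 highest levels, the highest of each subfamily, genes at or under 3 reads and the extremes among genes with an 8mer. Other genes named, such as Kcnk5, Kcnc1 and Kcnj6, were chosen after their values were seen. Some genes are counted in the totals but are not reported here by name. The members and lists were chosen with earlier results of these data known. Tables were handled in Python 3.11.15 (pandas 2.3.3), permutation tests ran in scipy 1.17.1, and plots were drawn with matplotlib 3.10.9.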

Additional observations from a re-analysis of the deposited data

Results flagged for a closer look

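The change after GFP-miR-34sp differed from that after GFP-miR-9sp for the 5 channel genes given here at an unadjusted p under 0.05 by the test of the difference itself (edgeR over 12 mice). None had an adjusted p under 0.05, the values running from 0.704 to 0.774. The difference, miR-34sp minus miR-9sp on the log2 scale, was 0.29 for Kcnf1, 0.30 for Kcnk9 and 0.19 for Kcnc4. It was -0.29 for Kcnh2 and -0.39 for Kcng2. Leaving out 1 mouse ended the call for Kcnc4 (0.14 to 0.16, unadjusted p from 0.0521 to 0.0734, without GFP Ctrl mouse 4 of the miR-34 experiment, GFP-miR-34sp mouse 13 or GFP-miR-9sp mouse 23). It also ended that for Kcng2 (-0.38 to -0.28, unadjusted p from 0.0515 to 0.0936, without GFP Ctrl mouse 4 of the miR-34 experiment, GFP Ctrl mouse 16 or 8 of the miR-9 experiment, GFP-miR-34sp mouse 3 or GFP-miR-9sp mouse 17 or 23). The GFP Ctrl mice of the experiments differed for Kcnf1, Kcnk9, Kcnc4 and Kcng2 as well, by log2 0.29, 0.33, 0.38 and -0.52 (miR-9 experiment against miR-34 experiment). The part of these GFP Ctrl values in the differences was not tested.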

How the results depend on the processing

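The count of channel genes with an unadjusted p under 0.05 after GFP-miR-9sp, 5 as reported, was 3 with DESeq2, 10 with no filter on low counts and 1 by the study's criterion. It was 2 when only genes with 1 entry were counted, an alternative chosen after seeing the data. The count after GFP-miR-34sp, 7 as reported, was 3 with DESeq2, 4 at a mean count above 50 and 2 by the study's criterion. The filter also changes how many genes are tested. Apart from the study's criterion above, the share of all genes called in each setting is not given here. These counts therefore say nothing particular about channel genes. With no filter 1 channel gene, Kcnj2, had an adjusted p under 0.05 after GFP-miR-34sp, against 0 as reported. The median change after GFP-miR-9sp was 0.0088 with total counts and 0.0039 by the study's criterion, and that after GFP-miR-34sp was -0.000118 at a mean above 50. The median difference was -0.0119 with total counts, -0.0108 with no filter and -0.0120 at a mean above 50. Partner genes with an unadjusted p under 0.05 numbered 0 after GFP-miR-9sp by the study's criterion, and 1 after GFP-miR-34sp with DESeq2 and by that criterion. The cause was not tested.

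Leaving out 1 mouse at a time gave 2 to 9 channel genes after GFP-miR-9sp (2 without GFP Ctrl 16, 9 without GFP Ctrl 2, 3 without GFP Ctrl 8), 4 to 9 after GFP-miR-34sp (4 without GFP Ctrl 4 and 4 without GFP-miR-34sp 18) and 4 to 9 for the difference. The share of all genes called in these fits is not given here, so these counts do not set channel genes apart. No channel gene had an adjusted p under 0.05 in any of these fits (0 to 0). For most single genes above, only the fits that weakened the estimate or ended the call are given, and other fits gave stronger estimates. The medians ranged from 0.000714 to 0.034969, from -0.02145 to 0.001859 and from -0.056621 to -0.019632. Partner genes ranged from 0 to 4 and from 1 to 5. Of the values for named genes and counts under the alternatives, 60 were no longer past the threshold, 19 were newly past it and 0 changed direction while past it. No paired analysis was made, because the groups compared hold separate mice and the labels give no pairing between them. The median standard error of a channel gene's log2 fold change was 0.093 after GFP-miR-9sp and 0.092 after GFP-miR-34sp, and the highest were 0.363 and 0.425.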

Other observations

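Of the 19 channel genes with an adjusted p under 0.05 between the GFP Ctrl mice of the experiments (edgeR, Benjamini-Hochberg adjustment over 12835 genes), 16 were higher in the GFP Ctrl mice of the miR-9 experiment, and Kcng2, Kcnk2 and Kcnj14 were lower. The share of all genes by direction at this threshold is not given here. Whatever their p, 45 of 68 channel genes (66.2%) had estimates above 0 in that direction, against 47.6% of all genes. Kcng2 was at 29.0 CPM in the miR-9 experiment and 39.6 CPM in the miR-34 experiment (means of 3 mice), and Kcnf1 at 161 and 126 CPM. The experiment and the mice cannot be told apart.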
